A study of Mus musculus with 12 samples.

Results

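The genes described here were 10 components of Wnt signaling that primary mouse skin fibroblasts express, namely the secreted antagonists Sfrp1, Sfrp2, Sfrp4, Dkk2, Dkk3 and Wif1, the feedback inhibitors Apcdd1, Notum and Axin2, and the receptor gene Lgr5. They were 10 of the 21556 genes counted, chosen by name with the response of these genes to TGF-β2 already known, so their levels with and without TGF-β2 are given as a description. RNA was sequenced from fibroblasts of the abdominal skin in 4 groups of 3 libraries. WT cells came from C57BL/6 mice and Nox4 KO cells from the strain B6.129-Nox4tm1Kkr/J, in which the gene of the oxidase subunit Nox4 is targeted in every cell of the animal. In all 4 groups the cells had been plated and then starved. They were left unstimulated (control) or received TGF-β2, the cytokine that turns fibroblasts into contractile myofibroblasts, at 10 ng/ml for 24 h. The ages of the donor mice, and whether the 3 libraries of a group came from different mice, are not given in the sources used here. The p-values therefore measure only the spread between these libraries, which may be technical, although it exceeded counting noise in every pair of replicates (chi-square per gene of 14.4 to 147).

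Wnt proteins are secreted ligands that bind frizzled receptors together with the co-receptors Lrp5 and Lrp6. The bound receptors stop the destruction of β-catenin, which then enters the nucleus and activates target genes with TCF/LEF factors. Secreted antagonists act before this step. Sfrp proteins carry a frizzled-like domain and bind Wnt ligands, Wif1 also binds ligands, and Dkk2 binds the Lrp co-receptors, whereas Dkk3 is a divergent Dickkopf protein whose role in the pathway is less settled. Notum is a secreted enzyme that removes the lipid from Wnt ligands, Apcdd1 is a membrane protein that inhibits the pathway, and Axin2 is a scaffold of the complex that destroys β-catenin. Notum, Apcdd1 and Axin2 are themselves Wnt targets in many tissues. Lgr5 is a receptor for R-spondins, which raise the number of Wnt receptors at the cell surface, and it is both a Wnt target and a marker of epithelial stem cells in the hair follicle and intestine.

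The control region before the start site is shown for 3 of these genes. Their windows were picked because they hold short words that TCF/LEF or SMAD factors, which act downstream of Wnt and TGF-β, are known to bind. A link between these words and the response to TGF-β2 was not tested. The windows are the 250 bases before the RefSeq start site in the build GRCm38.p6, on the plus strand, 5′ to 3′, at chr3:83766071-83766320 for Sfrp2, chr3:132085042-132085291 for Dkk2 and chr11:108920099-108920348 for Axin2. Capitals mark the TCF/LEF words CTTTGA or CTTTGT and the SMAD word CAGAC, searched on both strands.
Sfrp2: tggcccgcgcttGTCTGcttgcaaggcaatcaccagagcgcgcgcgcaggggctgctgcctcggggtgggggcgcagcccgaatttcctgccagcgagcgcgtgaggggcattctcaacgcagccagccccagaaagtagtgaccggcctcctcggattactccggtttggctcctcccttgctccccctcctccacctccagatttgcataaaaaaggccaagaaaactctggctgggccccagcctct
Dkk2: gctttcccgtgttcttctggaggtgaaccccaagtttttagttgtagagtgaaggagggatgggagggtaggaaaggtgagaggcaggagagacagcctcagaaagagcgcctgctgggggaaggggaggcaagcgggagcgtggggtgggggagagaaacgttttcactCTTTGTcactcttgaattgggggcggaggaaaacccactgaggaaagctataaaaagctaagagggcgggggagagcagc
Axin2: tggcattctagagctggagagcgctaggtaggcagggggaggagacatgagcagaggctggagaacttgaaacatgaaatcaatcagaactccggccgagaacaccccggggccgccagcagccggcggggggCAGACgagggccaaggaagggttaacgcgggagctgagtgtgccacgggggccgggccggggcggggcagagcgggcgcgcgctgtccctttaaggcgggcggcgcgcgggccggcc
Such windows were used for 4 of the 10 genes. The window of Dkk2 held 1 TCF/LEF word, 80 bases before the start. That of Sfrp2 held 1 SMAD word on the minus strand, 238 bases before the start, and that of Axin2 held 1 SMAD word, 117 bases before it. The remaining window, that of Wif1, held neither word. Among all 32841 windows of this length, 27.6% held a TCF/LEF word and 42.2% the SMAD word. A match is only a run of letters and does not show that a factor binds there.

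Levels are given as RPKM, the reads scaled to the merged exon length of the gene and to the library total, which allows genes of different length to be compared. The libraries held between 35118344 and 43796260 counts. Nox4 itself had 203 to 398 counts in WT control, 102 to 207 in Nox4 KO control, 1314 to 2471 in WT with TGF-β2 and 782 to 1175 in Nox4 KO with TGF-β2. The highest Nox4 KO control library lay just above the lowest WT control library, and the counts are summed over the whole gene and do not single out the targeted exons. All 8 fibroblast markers were above 1 RPKM in at least 1 library, and their summed level was 5315 to 7895 RPKM in the 12 libraries. Among the fibroblast markers the receptor gene Pdgfra was lower with TGF-β2, at 39.9 ± 9.06 and 3.79 ± 0.916 RPKM in WT and 27.7 ± 5.51 and 3.31 ± 0.437 RPKM in Nox4 KO (SD, n = 3). The collagen gene Col3a1 was also lower, at 1060 ± 215 and 451 ± 99.4 RPKM in WT and 847 ± 126 and 422 ± 56.3 RPKM in Nox4 KO. All 5 keratinocyte markers stayed under 1 RPKM in every library, with Krt5, Krt14 and Krt1 at 0 in at least 1. Of the 4 hair follicle stem cell markers, Krt15 and Lhx2 were under 1 RPKM in every library and at 0 in at least 1. The list summed to 12.2 to 20.2 RPKM in WT control and 6.18 to 8.85 RPKM after stimulation. The Nox4 KO sums were 15.9 to 18.6 RPKM in control and 7.64 to 8.89 RPKM after stimulation. Nearly all of the sum came from Cd34 and Sox9. Cd34 had means of 8.26 RPKM in WT control and 3.50 RPKM after stimulation (Nox4 KO, 10.5 and 3.76 RPKM). Those of Sox9 were 7.19 and 4.08 RPKM (Nox4 KO, 7.165 and 4.60 RPKM, with overlapping libraries).

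In control fibroblasts the 10 genes spanned a wide range of levels. In WT control the order of mean levels was Sfrp1 (323 ± 103 RPKM, SD, n = 3), Lgr5 (94.9 ± 55.4), Dkk3 (44.8 ± 11.7), Dkk2 (28.7 ± 5.66), Sfrp4 (4.13 ± 2.17), Apcdd1 (2.10 ± 0.881), Sfrp2 (1.63 ± 1.86), Notum (0.983 ± 0.488), Axin2 (0.925 ± 0.3345) and Wif1 (0.829 ± 0.2605). The ranges of neighbours in this order did not overlap down to Sfrp4, whereas from Sfrp4 on each gene overlapped with the next. Nox4 KO control had the same first 5 genes in the same order. After TGF-β2, Lgr5 stood behind Sfrp1, Dkk3 and Dkk2, in both genotypes, and its range overlapped with that of Dkk2.

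**Figure D1:**
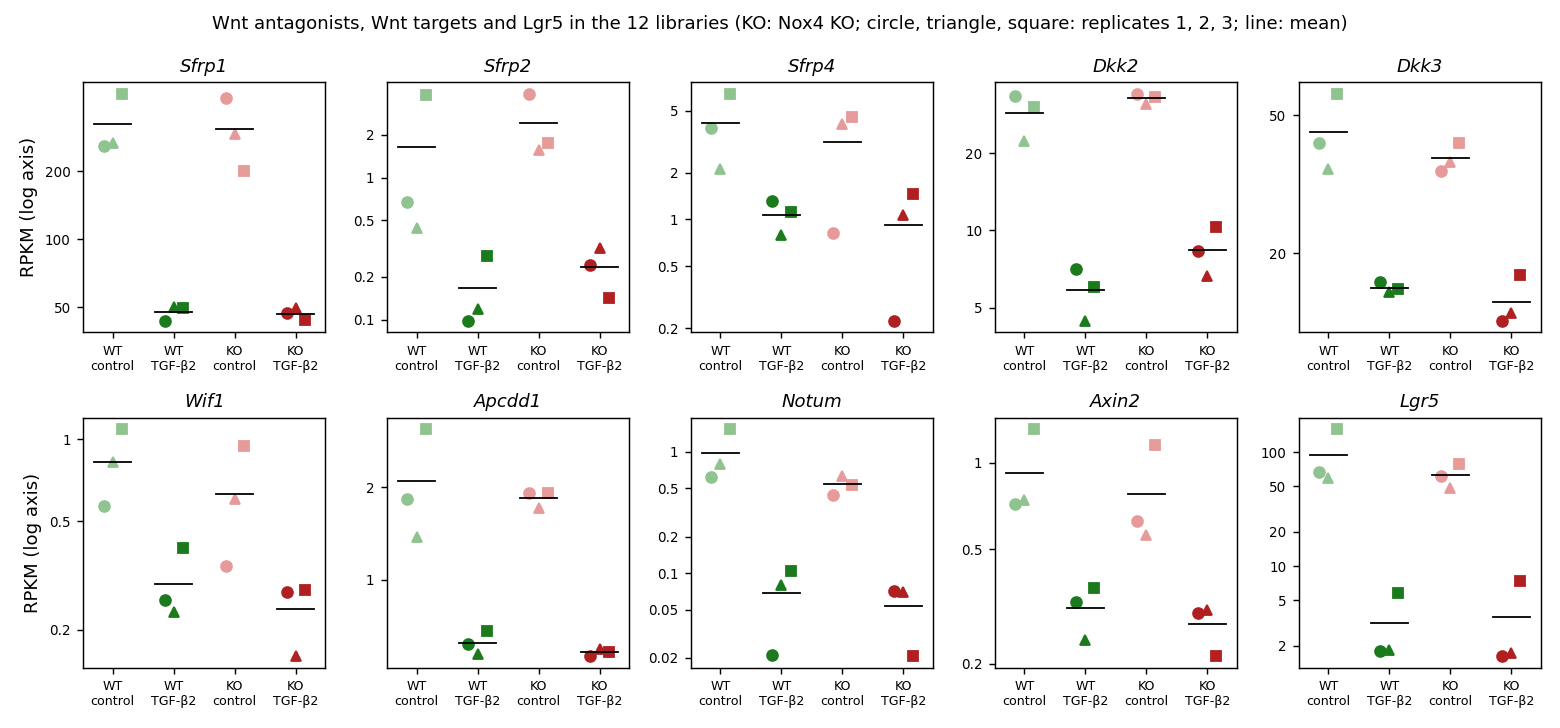
RPKM of the 10 genes in each of the 12 libraries on log axes (circles, triangles and squares are replicates 1, 2 and 3, lines are group means of 3). Every WT library with TGF-β2 lies below every WT control library for all 10 genes, and in Nox4 KO the same holds for 9 of 10, with Sfrp4 overlapping.

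After TGF-β2 all 10 genes had a lower mean level than in control in both genotypes. In WT the groups did not overlap for any of the 10 genes, and in Nox4 KO they did not overlap for 9 of 10. Without a filter on low counts, the share of all genes that were lower in every library was 22.2% in WT and 26.6% in Nox4 KO. Between 3.32% and 35.6% of the WT control mean was left (median 23.2%), and between 5.70% and 38.6% of the Nox4 KO control mean (median 27.4%). In bulk RNA, fewer cells that express a gene and less RNA per cell cannot be told apart.

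Genes that changed at least 2-fold, and whose adjusted p-value (Benjamini-Hochberg) in edgeR's quasi-likelihood test was under 0.05, were called. Only 7 of the 10 genes reached a mean of 1 RPKM in a group, the limit used for testing, and Sfrp2 and Apcdd1, and in Nox4 KO also Sfrp4, did so only through the control group, in which they were high. In WT 7 of these 7 were called lower, beside 5.09% of the 10743 genes tested, and in Nox4 KO 6 of 7, beside 4.58% of 10809. Without the filter, 10 of 10 were called lower in WT (5.16% of all genes) and 8 of 10 in Nox4 KO (4.34%), where Sfrp4 and Wif1 were not called. The median over the 7 genes, as a log2 fold change, was -2.25 in WT (all genes tested, -0.0027) and -1.88 in Nox4 KO (all genes tested, -0.014). Since these responses were known when the genes were chosen, nothing is read from these counts.

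Sfrp1 was the most abundant antagonist in every group. Its levels in WT control were 259, 268 and 442 RPKM in replicates 1, 2 and 3, and 43.5, 50.2 and 49.7 RPKM with TGF-β2. In Nox4 KO they were 425, 294 and 201.5 RPKM in control and 47.2, 49.4 and 43.8 RPKM with TGF-β2. The control libraries varied by over 2-fold, and the 6 stimulated libraries lay close together. The log2 fold change was -2.71 (SE 0.21) in WT and -2.63 (SE 0.28) in Nox4 KO.

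Dkk2 and Dkk3 followed among the antagonists. Dkk2 was at 33.35, 22.4 and 30.4 RPKM in WT control, 7.11, 4.44 and 6.03 RPKM in WT with TGF-β2, 34.1, 31.2 and 33.0 RPKM in Nox4 KO control and 8.34, 6.63 and 10.3 RPKM in Nox4 KO with TGF-β2. The lowest control library of Dkk2 was 3.15 times the highest stimulated one in WT and 3.03 times in Nox4 KO, and the log2 fold changes were -2.25 (SE 0.23) and -1.88 (SE 0.15). Dkk3 was at 41.6, 35.0 and 57.7 RPKM in WT control and 16.5, 15.4 and 15.7 RPKM with TGF-β2. In Nox4 KO, Dkk3 was at 34.4, 36.6 and 41.6 RPKM in control and 12.7, 13.45 and 17.3 RPKM with TGF-β2. Dkk3 kept the largest share of its level among the 7 tested genes, with log2 fold changes of -1.45 (SE 0.17) in WT and -1.29 (SE 0.13) in Nox4 KO.

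The 6 secreted antagonists summed to 329 to 541 RPKM in WT control and 283 to 498 RPKM in Nox4 KO control. With TGF-β2 the sum was 68.7 to 73.3 RPKM in WT and 69.0 to 73.3 RPKM in Nox4 KO. Sfrp1 made up 76.4% to 81.6% of the sum in WT control and 71.1% to 85.2% in Nox4 KO control, against 63.25% to 70.5% and 59.8% to 69.6% with TGF-β2. The sum thus mostly tracks Sfrp1, with Dkk2 and Dkk3 supplying nearly all of the rest.

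**Figure D2:**
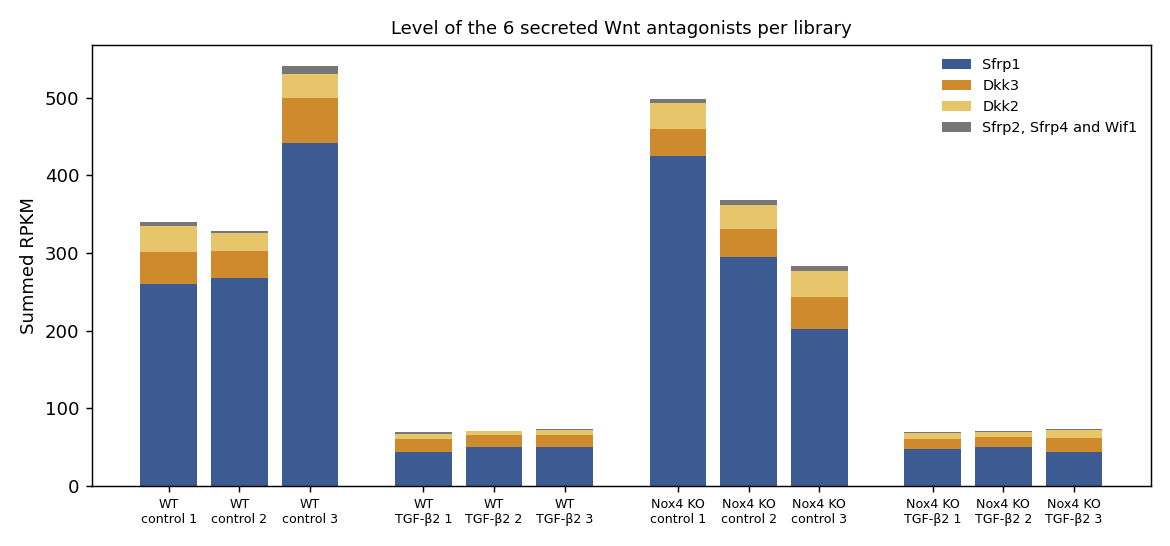
Summed RPKM of the 6 secreted antagonists in each library, stacked by gene (blue Sfrp1, orange Dkk3, yellow Dkk2, grey the other 3). The 6 libraries with TGF-β2 reach 68.7 to 73.3 RPKM in both genotypes, and control libraries 283 to 541 RPKM.

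Sfrp2, Sfrp4 and Wif1 were expressed at low levels. Sfrp2 was at 0.668, 0.445 and 3.78 RPKM in WT control and 0.0980, 0.119 and 0.282 RPKM with TGF-β2. In Nox4 KO, Sfrp2 was at 3.89, 1.57 and 1.74 RPKM in control and 0.244, 0.319 and 0.142 RPKM with TGF-β2. The WT control libraries of Sfrp2 were far apart, with replicate 3 at 6.78 times the mean of the other 2. The log2 fold changes were -3.23 (SE 0.93) in WT and -3.25 (SE 0.50) in Nox4 KO. The WT call was lost without WT control replicate 1 (log2 fold change -3.60) or without replicate 1, 2 or 3 of WT with TGF-β2 (-2.98, -3.04 and -3.83), and without WT control replicate 3 the gene was under the limit for testing.

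Sfrp4 was at 3.88, 2.10 and 6.41 RPKM in WT control and 1.32, 0.793 and 1.11 RPKM in WT with TGF-β2, and its WT log2 fold change was -1.88 (SE 0.41). The call in WT was lost without WT control replicate 1 (-1.92) or replicate 3 (-1.43). In Nox4 KO control Sfrp4 was at 0.819, 4.09 and 4.575 RPKM, and with TGF-β2 at 0.223, 1.07 and 1.46 RPKM. Replicate 1 was the lowest of both Nox4 KO groups, so the groups overlapped and the log2 fold change of -1.70 (SE 0.83) was not called. With the replicate number as a block, which compares same-numbered libraries, the value was -1.72 and was called.

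Wif1 was under 1 RPKM on average in every group, at 0.571 to 1.09 RPKM (46 to 101 counts) in WT control and 0.231 to 0.398 RPKM (20 to 34 counts) with TGF-β2. In Nox4 KO it was at 0.342 to 0.947 RPKM in control and 0.159 to 0.279 RPKM with TGF-β2. In the fit without the filter, the log2 fold changes of Wif1 were -1.41 (SE 0.33) in WT and -1.29 (SE 0.43) in Nox4 KO, the latter not called. The groups of Wif1 were the closest to touching among those that did not overlap in Nox4 KO, with the lowest control library at 1.22 times the highest stimulated one.

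The 3 feedback inhibitors were also lower with TGF-β2. Apcdd1 was at 1.38 to 3.08 RPKM in WT control and 0.575 to 0.682 RPKM in WT with TGF-β2, and at 1.71 to 1.91 RPKM in Nox4 KO control and 0.566 to 0.598 RPKM in Nox4 KO with TGF-β2. The log2 fold changes of Apcdd1 were -1.69 (SE 0.28) and -1.57 (SE 0.086), the second with the smallest of the standard errors.

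Notum had few reads and the largest relative difference after Lgr5 in WT. Its counts were 50, 70 and 143 in WT control and 2, 7 and 9 in WT with TGF-β2, which correspond to means of 0.983 ± 0.488 and 0.0688 ± 0.0429 RPKM (SD, n = 3). In Nox4 KO the counts of Notum were 39, 61 and 45 in control and 7, 7 and 2 with TGF-β2. In the fit without the filter its log2 fold changes were -3.74 (SE 0.54) in WT and -3.18 (SE 0.46) in Nox4 KO. With counts this low, the stimulated level is known only to within counting error.

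Axin2, whose RNA is a widely used readout of β-catenin signaling, was at 0.7185, 0.745 and 1.31 RPKM in WT control and 0.327, 0.242 and 0.368 RPKM with TGF-β2. In Nox4 KO, Axin2 was at 0.628, 0.562 and 1.15 RPKM in control and 0.301, 0.3085 and 0.212 RPKM with TGF-β2. In the fit without the filter its log2 fold changes were -1.48 (SE 0.29) and -1.38 (SE 0.32). Its groups did not overlap in either genotype, and replicate 3 was the highest control library in both.

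Parts of 3 of these genes overlap antisense genes, and the sources used here do not say if reads were counted by strand. Exons of Notum (chr11:120653788-120661175, minus strand, GRCm38) share 708 of 2308 exon bases with Notumos and 210 with Myadml2os. Exons of Sfrp2 (chr3:83766321-83774316) share 347 of 2003 bases with Gm26771, and those of Axin2 (chr11:108920349-108950783) share 207 of 5033 bases with Gm11670. These antisense genes are not rows of the table, so reads from them could not be set apart. The exons of Lgr5 (chr10:115450311-115587780, minus strand) share 0 bases with those of A930009A15Rik, which lies across it on the plus strand.

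Lgr5 showed the largest difference of the 10 genes. It was at 66.7, 59.2 and 159 RPKM in WT control and at 1.82, 1.845 and 5.80 RPKM with TGF-β2. In Nox4 KO it was at 61.35, 48.1 and 78.2 RPKM in control and 1.61, 1.73 and 7.35 RPKM with TGF-β2. The lowest WT control library was 10.2 times the highest stimulated one, and 6.55 times in Nox4 KO. The counts behind these levels were 10644 to 30175 in WT control and 328 to 1017 in WT with TGF-β2, so counting error was small beside the spread of replicates. The log2 fold change of Lgr5 was -4.86 (SE 0.65) in WT, a 29.05-fold lower level, and -4.05 (SE 0.67) in Nox4 KO, a 16.6-fold lower level.

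Replicate 3 was the highest library for Lgr5 in each of the 4 groups. It stood at 2.52 times the mean of the other 2 in WT control, 3.17 times in WT with TGF-β2, 1.43 times in Nox4 KO control and 4.39 times in Nox4 KO with TGF-β2. Leaving out replicate 3 of the stimulated group moved the log2 fold change of Lgr5 to -5.64 in WT and -5.13 in Nox4 KO, and leaving out WT control replicate 3 moved the WT value to -4.28. Lgr5 was called in each of these fits.

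**Figure D3:**
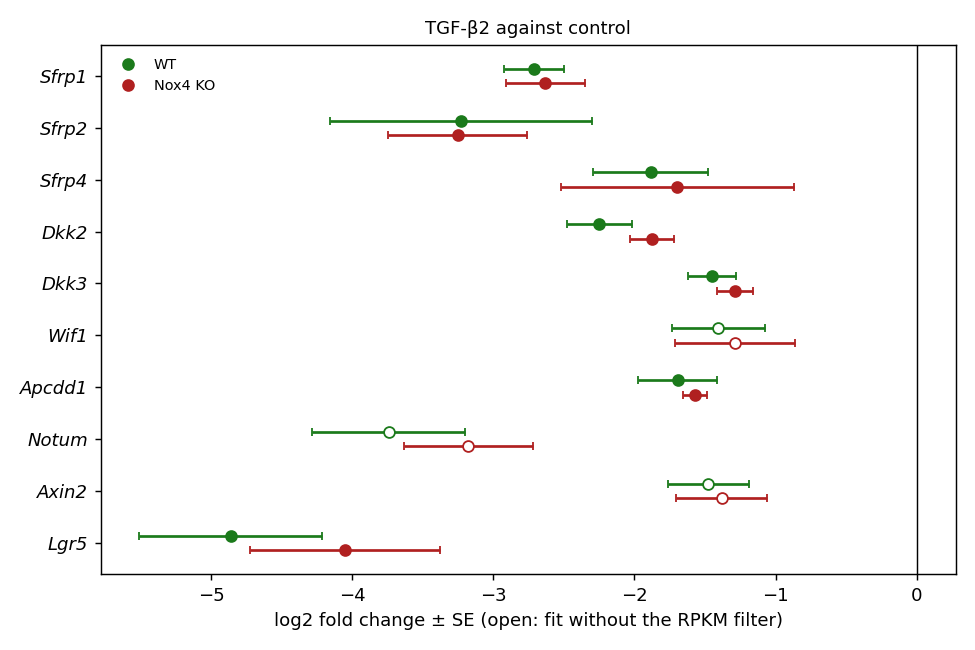
Log2 fold change of each gene with TGF-β2 against control, with its standard error, in WT (green) and Nox4 KO (red), 3 libraries against 3. Open symbols are from the fit without the filter on low levels. All values lie below 0, from -4.86 for Lgr5 in WT to -1.29 for Dkk3 and Wif1 in Nox4 KO.

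WT control replicate 3 was the highest of its group for 9 of the 10 genes, whereas it was the highest for 53.7% of the 10890 genes expressed in at least 1 group. The summed level of the 5 myeloid markers was also highest there, at 106 RPKM against 40.1 and 22.6 RPKM in replicates 1 and 2. Over the other groups this sum was 18.1 to 72.0 RPKM in WT with TGF-β2, 18.0 to 81.0 RPKM in Nox4 KO control and 11.6 to 58.3 RPKM in Nox4 KO with TGF-β2, and none of the 5 markers was at 0 in any library. In Nox4 KO replicate 3 had the lowest myeloid sums, 18.0 and 11.6 RPKM, and the highest Lgr5 of its groups. Nox4 KO control replicate 1 had the highest myeloid sum of its group, 81.0 RPKM, and the highest Sfrp1 and Sfrp2. In that group replicate 1 was the highest for 4 of the 10 genes (32.0% of all genes expressed) and replicate 3 for 5 (48.0%). Without WT control replicate 3, the WT log2 fold changes with TGF-β2 moved towards 0, to -2.43 for Sfrp1, -1.43 for Sfrp4 and -1.23 for Dkk3. Those of Apcdd1 and Lgr5 moved to -1.315 and -4.28.

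The 4 adipocyte markers summed to 2.88 to 5.58 RPKM in WT control and 0.524 to 1.203 RPKM in WT with TGF-β2, most of it from Fabp4. In the Nox4 KO libraries they summed to 0.660 to 3.93 RPKM in control and 0.173 to 0.707 RPKM with TGF-β2, ranges that overlapped, and Adipoq, Plin1 and Cidec were at 0 in at least 1 library. The 6 dermal papilla markers, of fibroblasts at the base of the hair follicle, summed to 6.57 to 14.97 RPKM in WT control. After stimulation of WT cells the sum was 4.46 to 20.3 RPKM. The Nox4 KO sums were 8.14 to 22.8 RPKM in control and 7.82 to 9.29 RPKM after stimulation. Corin, Sox2 and Sox18 were at 0 in at least 1 library. Most of the sum came from Crabp1, with means of 10.2 RPKM in WT control and 10.4 RPKM after stimulation (Nox4 KO, 13.9 and 8.06 RPKM). The 4 skeletal muscle markers summed to 42.0 to 98.3 RPKM in WT control and 275 to 615 RPKM in WT with TGF-β2, and to 87.3 to 109.6 and 256 to 571 RPKM in Nox4 KO, nearly all of it from Acta1, with Myod1 and Myog at 0 in at least 1 library. The 4 endothelial markers reached at most 5.38 RPKM in any library and the 4 Schwann cell and melanocyte markers at most 1.14 RPKM. The part of other cell types in the levels of the Wnt genes was not tested.

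The genotypes were then compared, to ask whether the loss of Nox4 altered these genes. For none of the 10 did the libraries of the genotypes separate, in control or with TGF-β2, while 13.6% of all tested genes separated in control and 10.1% with TGF-β2. In control 0 of the 7 genes tested were called, with edgeR's adjusted p-values of 0.828 to 0.966. The table of all 10767 genes also held 0 calls (0%), and 5.54% of genes had an unadjusted p-value under 0.05. With TGF-β2 0 of 5 genes were called, with edgeR's adjusted p-values of 0.838 to 0.981, as were 0 of all 10439 genes (0%), of which 3.23% had an unadjusted p-value under 0.05. DESeq2 called 0 of these genes in either comparison. The paper, also with edgeR, reported a few genes that differed between the genotypes in each condition. The 0 calls over all genes here therefore do not show that no gene differed.

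In control, Lgr5 had a log2 difference of -0.63 (SE 0.39, Nox4 KO minus WT), with an edgeR adjusted p-value of 0.828, and without WT control replicate 3 the difference was -0.075. Dkk3 had a log2 difference of -0.29 (SE 0.17) and Sfrp1 one of -0.10 (SE 0.32). With TGF-β2, Sfrp1 had a log2 difference of -0.0077 (SE 0.096), the most precise of the comparisons between genotypes, while that of Lgr5 was 0.19 (SE 0.73). In the fit without the filter, 1 gene in each condition had an unadjusted p-value under 0.05. They were Notum in control, with a log2 difference of -0.89 (SE 0.36, edgeR adjusted p = 0.849), and Dkk2 with TGF-β2, with 0.52 (SE 0.22, edgeR adjusted p = 0.830). At this spread, a difference of the size seen for Lgr5 or Sfrp2 between genotypes was not detectable.

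**Figure D4:**
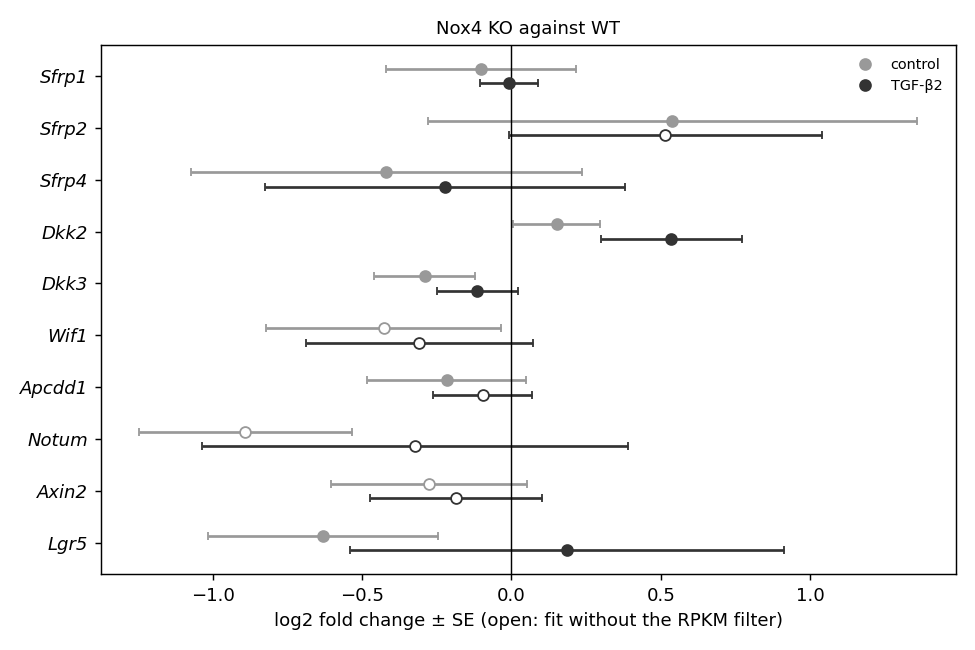
Log2 fold change of Nox4 KO against WT with its standard error, in control (grey) and with TGF-β2 (black), 3 libraries against 3. Open symbols are from the fit without the filter on low levels. Values lie between -0.89 for Notum in control and 0.54 for Sfrp2 in control, and none was called.

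The response to TGF-β2 was compared between genotypes with an interaction term over the 12 libraries. None of the 7 genes tested passed, with edgeR's adjusted p-values of 0.854 to 1.00, and 0 of all 10890 genes passed (0%), of which 2.68% had an unadjusted p-value under 0.05. DESeq2 called 0 of the 7 genes as well. The difference in response, Nox4 KO minus WT, was 0.82 on the log2 scale for Lgr5 (SE 0.91, edgeR adjusted p = 0.858), 0.38 for Dkk2 (SE 0.30), 0.18 for Dkk3 (SE 0.23) and 0.097 for Sfrp1 (SE 0.36). The smaller response of Lgr5 in Nox4 KO thus lay within the error of the difference, and without replicate 3 of Nox4 KO with TGF-β2 the value was -0.26.

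The rest of the pathway was described with lists of 80 other genes, of which 50 were tested in each genotype. In WT 19 of the 50 were called, 7 higher and 12 lower, beside 2.62% and 5.09% of all genes, and in Nox4 KO 17 of 50 were called, 8 higher and 9 lower, beside 2.22% and 4.58%. Of these, 15 were called in both genotypes. The lists were written with earlier results of these data known. The counts and adjusted p-values given for the listed genes are therefore a description and no independent support.

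Among 19 Wnt ligands, 7 were tested in WT, of which 4 rose and 1 fell, and in Nox4 KO 8 were tested, of which 5 rose and 1 fell. Without the filter on low counts, 5 of 17 rose and 2 fell in WT, where 391 of all 16828 genes rose and 868 fell. In Nox4 KO 6 of 19 then rose and 1 fell, beside 329 and 735 of 16950. Wnt1, under the limit for testing, had 0 to 1 counts in WT control and 50 to 77 in WT with TGF-β2. Wnt10b rose from 0.108 ± 0.0157 to 2.31 ± 0.07055 RPKM in WT (SD, n = 3), with a log2 fold change of 4.44 (SE 0.19, edgeR adjusted p = 0.000236). Wnt9a rose from 2.16 ± 0.337 to 19.3 ± 2.14 RPKM (log2 3.20, SE 0.15), and Wnt11 and Wnt5b rose with log2 fold changes of 2.69 and 1.71. In Nox4 KO, Wnt10b, Wnt11, Wnt9a and Wnt5b rose with log2 fold changes of 3.68, 2.97, 2.87 and 1.77. Wnt5a, a ligand known for signaling without β-catenin, had log2 fold changes of 0.73 in WT, under the 2-fold limit, and 1.06 in Nox4 KO, where it was called. Wnt4 fell by 1.12 on the log2 scale in WT and by 1.03 in Nox4 KO.

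Among 15 frizzled receptors and co-receptors, 12 were tested. Fzd1, Fzd4 and Ror1 fell in both genotypes, with log2 fold changes of -1.41, -1.58 and -1.69 in WT and -1.44, -1.32 and -1.29 in Nox4 KO. Fzd6 rose, with 1.59 in WT and 1.68 in Nox4 KO. Fzd8 fell in WT (-1.07, SE 0.24) and had a value of -0.95 (SE 0.40) in Nox4 KO, where it was not called. The Wnt ligands and the receptors therefore did not move in a single direction.

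R-spondins are the ligands of Lgr4, Lgr5 and Lgr6. Of the 8 genes for R-spondins, their other receptors and the ligases they act on, 5 were tested in WT and 2 fell, and 4 were tested in Nox4 KO, of which 0 were called without a block for the replicate number. Rspo2 fell from 2.04 ± 0.648 to 0.200 ± 0.0435 RPKM in WT (SD, n = 3), with a log2 fold change of -3.30 (SE 0.33, edgeR adjusted p = 0.00141). In Nox4 KO, Rspo2 had a log2 fold change of -2.58 (SE 0.94, edgeR adjusted p = 0.0862), and the interaction had an adjusted p-value of 0.886. With the replicate number as a block, which compares same-numbered libraries, the Nox4 KO value was -2.63 (SE 0.20, edgeR adjusted p = 0.000548) and was called, which made 18 of 50 pathway genes called in Nox4 KO. Rspo3 fell in WT (-1.88, SE 0.36) and was under the limit for testing in Nox4 KO. Lgr4, the more widely expressed relative of Lgr5, was at 14.75 ± 2.105 RPKM in WT control and 8.41 ± 1.07 RPKM with TGF-β2, a log2 fold change of -0.77 that is under the 2-fold limit.

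Of 10 other antagonists, 3 were tested in each genotype and only Frzb, an Sfrp-related protein that binds Wnt ligands, was called. Without the filter on low counts, 2 of 8 were called lower in WT (5.16% of all genes) and 2 of 6 in Nox4 KO (4.34%). Draxin, under the limit for testing, had 52 to 107 counts in WT control and 0 to 2 in WT with TGF-β2. Frzb fell from 2.53 ± 0.314 to 0.408 ± 0.108 RPKM in WT (log2 -2.59, SE 0.24, edgeR adjusted p = 0.0012) and from 1.75 ± 0.124 to 0.291 ± 0.0590 RPKM in Nox4 KO (log2 -2.50, SE 0.20). Kremen1, a receptor for Dkk proteins, and Tpbg had log2 fold changes of 0.60 and -0.46 in WT and were not called.

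Among 11 other Wnt targets, 7 were tested, and 2 rose and 3 fell in each genotype. Ccnd1, the gene of cyclin D1, and the negative regulators Nkd1 and Nkd2 fell in both, with log2 fold changes of -2.28, -1.64 and -1.60 in WT and -1.99, -1.93 and -1.58 in Nox4 KO. Lef1, a TCF/LEF factor, rose from 0.151 ± 0.0264 to 1.585 ± 0.200 RPKM in WT (log2 3.42, SE 0.22) and from 0.155 ± 0.0219 to 1.25 ± 0.55 RPKM in Nox4 KO (log2 3.10, SE 0.42). Myc rose in WT (1.02) and had a log2 fold change of 0.74 in Nox4 KO, under the 2-fold limit. Ccn4 had a log2 fold change of 0.83 in WT, also under the limit, and rose in Nox4 KO (1.24). Genes that are all known as Wnt targets thus differed in direction, with Axin2, Apcdd1, Notum, Nkd1, Nkd2 and Ccnd1 lower and Lef1 higher with TGF-β2.

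Of 17 genes for Wnt secretion and the core pathway, 16 were tested and 1 was called in each genotype. It was Tcf7l2, another TCF/LEF factor, which fell with a log2 fold change of -1.04 (SE 0.13) in WT and -1.08 (SE 0.14) in Nox4 KO. Ctnnb1, the gene of β-catenin, was at 114 ± 1.54 RPKM in WT control and 105 ± 1.09 RPKM in WT with TGF-β2, and had a log2 fold change of -0.077 (SE 0.082).

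**Figure D5:**
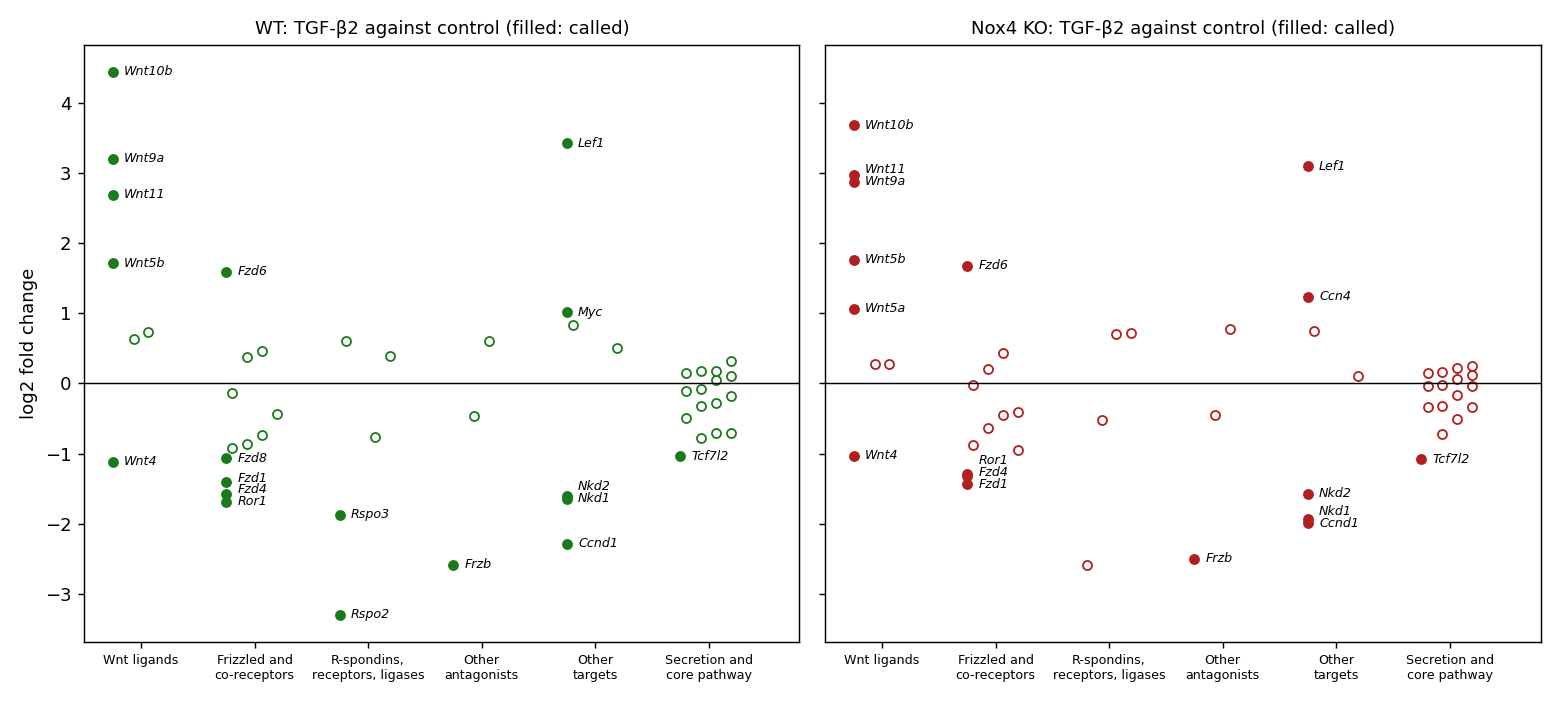
Log2 fold change with TGF-β2 of the other Wnt pathway genes tested, by list, in WT (left, green) and Nox4 KO (right, red). Filled points with names were called (19 of 50 in WT, 17 of 50 in Nox4 KO). Ligands lie mostly above 0 and reach 4.44 for Wnt10b in WT, and Tcf7l2 is the core pathway gene called in both genotypes.

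The genes most alike to Lgr5 over the 12 libraries, by Pearson's r of log2(CPM + 0.5) among 10889 genes, were Kcne4 (0.995), Jade2 (0.993), Rgl1 (0.993), Plekhh2 (0.992) and Mrgprf (0.992). Kcne4, a potassium channel subunit, had a mean of 24.2 RPKM in WT control and 1.43 RPKM in WT with TGF-β2. Those of Axin2 included Klhl29 (0.964), Rbl2 (0.964), Fbxl20 (0.964) and Crebrf (0.961). The 12 points share their libraries and fall into a control and a stimulated cluster. Genes that are clearly lower with TGF-β2 therefore score high, and these values are a description.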

How the data were processed

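RNA of 12 libraries was sequenced as single-end reads. The authors mapped them with STAR 2.4 to GRCm38, discarded reads with several locations and counted reads per gene with featureCounts 1.4.6, on exons merged over the protein-coding isoforms. The deposited values are these raw counts per gene. Reads from near-identical sequences were thus lost. Groups and replicate numbers came from the sample labels.

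Symbols and merged exon lengths were taken from GENCODE M21 by Ensembl identifier for all 21556 genes, and RPKM was computed from count, length and library total. Genes with a mean of at least 1 RPKM in at least 1 compared group were tested with edgeR 4.0.16 in R 4.3.3 (TMM, quasi-likelihood, Benjamini-Hochberg over all genes), with the 6 libraries of each comparison. Standard errors were derived from the F statistic. A call needed an adjusted p-value under 0.05 and at least a 2-fold change. The interaction used 12 libraries and no fold limit. The procedure was tested on simulated counts. A count of 0 allows up to 3 counts, counting error only.

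The 10 genes, the lists of other Wnt pathway genes and the cell type markers were chosen with earlier results of these data known. Named genes were the 10 genes, every listed pathway gene called in either genotype, the genes that a count of 5 or fewer leaves out, the 5 genes most correlated with Lgr5 and with Axin2 (1 of these is not reported here), Nox4 and the markers. Same-numbered Nox4 KO libraries deviated together from their group means (r = 0.775, 0.683 and 0.748), so the numbers pair them. The pairing comes from this check, since the labels do not state it. In WT the correlations were 0.0751, 0.435 and 0.531, against -0.488 to 0.304 for libraries of unlike number. Pairing by number in WT is therefore possible but not settled. Between genotypes the correlations of same-numbered libraries reached from -0.175 to 0.285, so those samples share only a number. Alternatives were DESeq2 1.42.0, a replicate block, other size factors and filters, a fit of all 12 libraries, calls with no fold limit, and leaving out each library in turn. Promoter windows came from RefSeq.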

Additional observations from a re-analysis of the deposited data

How the results depend on the processing

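With 3 libraries in a group, 1 library can decide a call, and low counts limit Notum, Wif1, Axin2 and Sfrp2. Between control and TGF-β2, the log2 fold changes of the 7 genes tested stayed negative under every alternative run. The call of Sfrp4 in WT was lost with all 12 libraries in the fit (-1.88), and the replicate block gave its call in Nox4 KO (-1.72, pairing same-numbered libraries) and changed no other call among the 7. Among the other pathway genes tested, the block changed only the call of Rspo2 in Nox4 KO (-2.63, called). Without the fold limit, 35 of 50 other pathway genes passed in WT and 27 of 50 in Nox4 KO. Of all 10743 genes tested in WT, 1117 then passed as higher and 1308 as lower. Of all 10809 in Nox4 KO, 1637 passed as higher and 1606 as lower. The limit leaves out genes with smaller changes.

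Leaving out 1 library at a time turned the sign of several differences that were not called. In Nox4 KO against WT in control the values then ranged from -0.41 to 0.16 for Sfrp1, -0.0033 to 2.05 for Sfrp2, -0.76 to 0.034 for Sfrp4 and -0.43 to 0.14 for Apcdd1. With TGF-β2 they ranged from -0.050 to 0.044 for Sfrp1, -0.71 to 0.24 for Sfrp4 and -0.89 to 0.98 for Lgr5. For the interaction they ranged from -0.19 to 0.41 for Sfrp1, -1.53 to 0.60 for Sfrp2, -0.29 to 0.67 for Sfrp4, -0.038 to 0.32 for Dkk3, -0.24 to 0.36 for Apcdd1 and -0.26 to 1.62 for Lgr5. None of these was called in any of these fits. The number of the 10 genes called with TGF-β2 ranged from 5 to 9 in WT, lowest without WT control replicate 3, and was 6 in Nox4 KO without any one library. For the other pathway genes it ranged from 15 to 19 in WT and from 13 to 19 in Nox4 KO. The shares over all genes in these fits are not given here, so nothing is read from these counts.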
